A study of Mus musculus with 16 samples.

Results

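Antioxidant enzymes remove the superoxide, hydrogen peroxide and lipid peroxides that aerobic metabolism and light leave behind. The set described here holds 10 genes: the superoxide dismutases Sod1 and Sod2, catalase (Cat), the glutathione peroxidases Gpx1 and Gpx4, the peroxiredoxins Prdx1, Prdx3 and Prdx6, thioredoxin (Txn1), and Nfe2l2, which encodes no enzyme but the transcription factor that switches on many antioxidant genes. They were taken by gene symbol from the 45594 genes of the authors' table of CPM per gene, and all 10 were found. The choice was made with earlier results of these data known. RNA was sequenced from rods, the photoreceptors of dim-light vision, sorted by flow cytometry from C57BL/6J (Nrlp-GFP) mice, in which the promoter of the rod gene Nrl drives green fluorescent protein. The mice were 3, 12, 18 or 24 months old (3M, 12M, 18M and 24M), with 4 libraries per age, and all ages carried the same reporter with no other treatment in the labels. The design implies a comparison of each later age with 3M. The design text calls the libraries of an age biological replicates, and whether a library came from 1 mouse or from several is not stated in the labels. The promoter makes the sort only as specific as the reporter.

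Superoxide dismutases turn superoxide into hydrogen peroxide, Sod1 mainly in the cytosol and Sod2 in the mitochondrial matrix. Catalase, a heme enzyme of peroxisomes, splits hydrogen peroxide into water and oxygen, and glutathione peroxidases and peroxiredoxins reduce peroxides with electrons that come from NADPH through glutathione or thioredoxin. Rods are known for a high oxygen consumption and for outer segment membranes rich in polyunsaturated lipids, which are prone to peroxidation. The Nfe2l2 protein is held low by Keap1, which targets it for degradation, and when stable it binds antioxidant response elements with small Maf proteins.

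RefSeq promoter windows of GRCm38.p6, which run from 250 bases before a gene's start to 50 bases after it, were matched for 9 of the 10 genes, all but Prdx6. The antioxidant response element was searched on both strands as TGACNNNGC, a form that 12.4% of all 32817 windows held. Among the 9 genes it was found in the windows of Prdx1, Sod1 and Nfe2l2. The window of Prdx1 also held TGACTCA, the AP-1 element, at 2 places, and 1 copy lies inside its antioxidant response element. TGACTCA was found in 5.2% of all windows. The window of Cat held neither, but 4 copies of the CCAAT box (found in 37.4% of all windows) and 1 copy of the GC box GGGCGG (35.6%). Prdx1, like Sod1 and Nfe2l2, holds a match to the antioxidant response element. Cat was the 1 tested gene whose RNA fell with age in the edgeR fit of all 16 libraries. The 250 bases before the start of both genes are therefore shown. They are written 5′ to 3′ along the gene, with the CCAAT box (on either strand) and the GC box in capitals for Cat (chr2:103485154-103485403, minus strand) and the antioxidant response element, here on the other strand, in capitals for Prdx1 (chr4:116685349-116685598, plus strand). A match describes letters only and shows no binding.
Cat: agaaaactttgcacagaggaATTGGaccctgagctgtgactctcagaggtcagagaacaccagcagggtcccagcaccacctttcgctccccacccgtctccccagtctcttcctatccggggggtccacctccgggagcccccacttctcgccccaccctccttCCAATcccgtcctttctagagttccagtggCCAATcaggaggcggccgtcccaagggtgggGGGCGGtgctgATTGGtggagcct
Prdx1: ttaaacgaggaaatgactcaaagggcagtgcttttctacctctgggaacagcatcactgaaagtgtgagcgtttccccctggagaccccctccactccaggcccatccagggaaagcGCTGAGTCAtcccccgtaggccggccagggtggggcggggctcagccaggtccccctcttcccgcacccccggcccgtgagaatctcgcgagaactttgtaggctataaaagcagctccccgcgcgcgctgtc

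Per length, the genes spanned a wide range of levels. In TPM, which divides estimated counts by transcript length, Gpx4, the selenoprotein that reduces lipid peroxides inside membranes, was highest at 90.5 ± 7.44 TPM (SD over the 16 libraries of all ages) and stood above 97.0% of the 11054 protein-coding genes with at least 1 TPM. Sod1 followed at 22.1 ± 2.34 TPM and Prdx1, a cytosolic peroxiredoxin, at 14.1 ± 1.57 TPM. Sod2 (8.80 ± 1.56 TPM), Nfe2l2 (7.01 ± 2.22), Prdx6 (4.63 ± 0.971), the mitochondrial peroxiredoxin Prdx3 (3.74 ± 0.560), the cytosolic selenoprotein Gpx1 (3.14 ± 0.407) and Cat (2.48 ± 0.590) came next, and Txn1 was lowest at 1.59 ± 0.415 TPM, above 7.8% of those genes. In this order the 16 values of Gpx4 lay above all of Sod1's, and those of Sod1 above all of Prdx1's. Every other pair of neighbours overlapped in its range over the libraries. Compared within each library, Prdx1 lay above Sod2, Sod2 above Nfe2l2 and Cat above Txn1 in all 16. Gpx1 lay above Cat in 15 libraries, Nfe2l2 above Prdx6 in 13, Prdx6 above Prdx3 in 13 and Prdx3 above Gpx1 in 12.

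**Figure D1:**
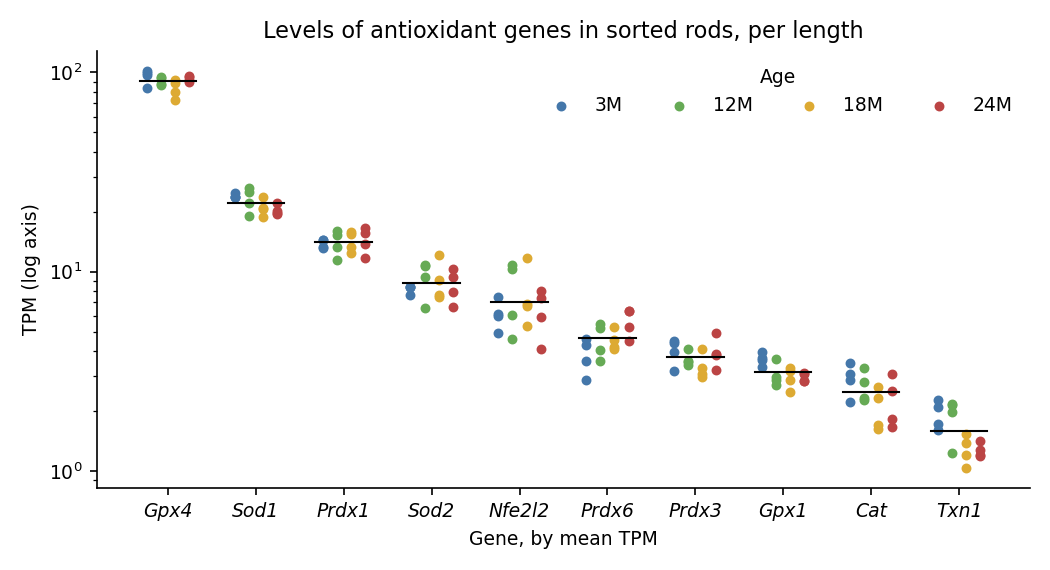
TPM of the 10 genes (log axis) in each of the 16 libraries, coloured by age, with a line at the mean of all libraries. Gpx4 stands alone at the top (72.9 to 102.1 TPM) and Txn1 at the bottom (1.03 to 2.27 TPM), while neighbours from Prdx1 downward overlap.

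The length matters to this order for Sod2, whose annotated transcript of 5861 bases is the longest of the set. In CPM, which scales counts to a common library total without dividing by length, Sod2 ranked next to Gpx4 at 71.1 CPM, against 20.1 CPM for Sod1. Behind a library's value stood 1720 to 3370 estimated counts for Gpx4, 103 to 259 for Cat and 34 to 102 for Txn1, so counting limits the lower genes more.

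Of the cells in these libraries, rods were by far the main source by their markers: Sag, rod arrestin, averaged 4900.0 CPM (4001 to 5909 CPM over the 16 libraries), and Gnat1, the rod transducin subunit, averaged 4404 CPM (3330.0 to 5702 CPM). Summed over 7 rod markers, the level was lower at the later ages, at 14610 to 17660 CPM in 24M libraries, 15050 to 16890 CPM at 18M and 16140 to 18990 CPM at 12M, against 18990 to 20410 CPM at 3M. At 24M against 3M, 1 of these 7 (Pdc, phosducin) was called, against 4.25% of all tested genes. Of the 7, 6 were lower at 24M, against 47.3% of all tested genes. Their median log2 difference was -0.31, against 0.01 over all tested genes. Markers of 11 other cell types were much lower. Of 10 markers of microglia and macrophages 6 were under 0.5 CPM in every library, and so were 3 (Rpe65, Tyrp1 and Pmel) of 8 of the retinal pigment epithelium. The 8 bipolar cell markers summed to 214.7 to 267.2 CPM in 24M libraries and 242.9 to 283.6 CPM in 3M libraries. The 6 amacrine cell markers summed to 123.7 to 156.7 CPM in 24M libraries and 139.3 to 165.2 CPM in 3M libraries. The 9 Müller glia markers summed to 161.8 to 280.8 CPM in 24M libraries and 122.9 to 252.6 CPM in 3M libraries, and to 451.9 CPM in 12M replicate 4, the highest of all 16. In sorted bulk RNA, a change in the makeup of the sorted cells and a change in RNA per cell cannot be told apart.

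The libraries also differed in a transcript-length slope: the log2 CPM of a library, each gene taken relative to its own mean, changed by this much for each doubling of a gene's transcript length. It reached from -0.0815 in 24M replicate 3 to 0.0839 in 18M replicate 3, with -0.0474 in 12M replicate 4. These 3 libraries are the ones that the authors' normalized table does not hold, and results are given below with and without them. Over the 9 genes that passed the expression filter, 12M replicate 4 stood 0.385 above the mean of its age in log2 CPM, farther than any other library. Of the other two, 24M replicate 3 stood 0.14 above it and 18M replicate 3 stood at -0.195, and libraries that the table holds came as far, with 0.146 in 18M replicate 2 and -0.187 in 24M replicate 1. Replicate 4 of 12M was the highest of all 16 libraries for 7 of the 10 genes (Sod1, Gpx1, Gpx4, Prdx1, Prdx3, Prdx6 and Txn1), and 18M replicate 3 the lowest for Cat, Gpx1 and Gpx4.

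**Figure D2:**
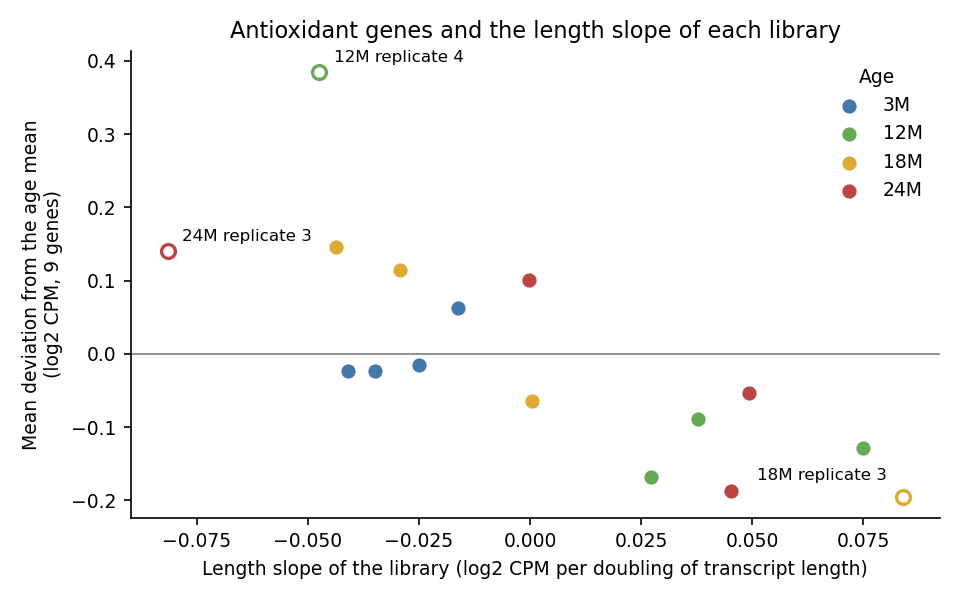
Mean deviation of the 9 tested antioxidant genes from the mean of their age (log2 CPM) against the length slope of each of the 16 libraries, with open circles for the 3 libraries that the authors' normalized table does not hold. Libraries with a negative slope mostly lie above 0 and the 6 with a slope of 0.0272 or more all lie below it, with 12M replicate 4 at 0.385 and 18M replicate 3 at -0.195.

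Among the genes, Sod2 varied least within an age, with a standard deviation of 0.042 in log2 CPM, and Gpx1 most, with 0.331. Prdx6 (0.314), Sod1 (0.284), Gpx4 (0.278), Prdx3 (0.276) and Nfe2l2 (0.254) varied nearly as much as Gpx1, and Prdx1 (0.196) and Cat (0.174) less.

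Catalase was the 1 antioxidant gene of 9 tested whose RNA fell with age in the edgeR fit of all 16 libraries. Cat (ENSMUSG00000027187, chromosome 2, 103453849 to 103485160, GRCm38) had 8.53, 9.77, 9.94 and 7.69 CPM in the 3M libraries, 6.51, 5.36, 6.18 and 7.92 CPM at 12M, 5.96, 5.67, 4.73 and 4.96 CPM at 18M, and 5.43, 6.01, 5.86 and 4.97 CPM at 24M. Every library of 18M and 24M was below every library of 3M, while 12M replicate 4 reached into the 3M range. Cat fell to 5.57 ± 0.468 CPM at 24M, against 8.98 ± 1.06 CPM at 3M (SD, n = 4 each), which was 1.62-fold lower (log2 difference -0.69, SE 0.134, edgeR adjusted p = 0.0052). It was as low at 18M, at 5.33 ± 0.578 CPM against the same 3M libraries (-0.75, SE 0.135, edgeR adjusted p = 0.0041). At 12M, 6.49 ± 1.07 CPM against 8.98 ± 1.06 CPM at 3M gave -0.47 (SE 0.134), which did not pass the test (edgeR adjusted p = 0.13). Without 12M replicate 4 this difference was -0.58 and passed (edgeR adjusted p = 0.02). Over the whole age range, Cat fell by 0.425 on the log2 scale per 12 months (SE 0.078, edgeR adjusted p = 0.0023), and the F-test for any difference among the 4 ages gave an edgeR adjusted p = 0.0083. That F-test no longer passed without 3M replicate 2 or without 3M replicate 3, while the calls at 24M, at 18M and of the trend held whichever library was left out. The 7 rod markers were lower in sum at 18M and 24M too, and their part in the fall of Cat was not tested.

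**Figure D3:**
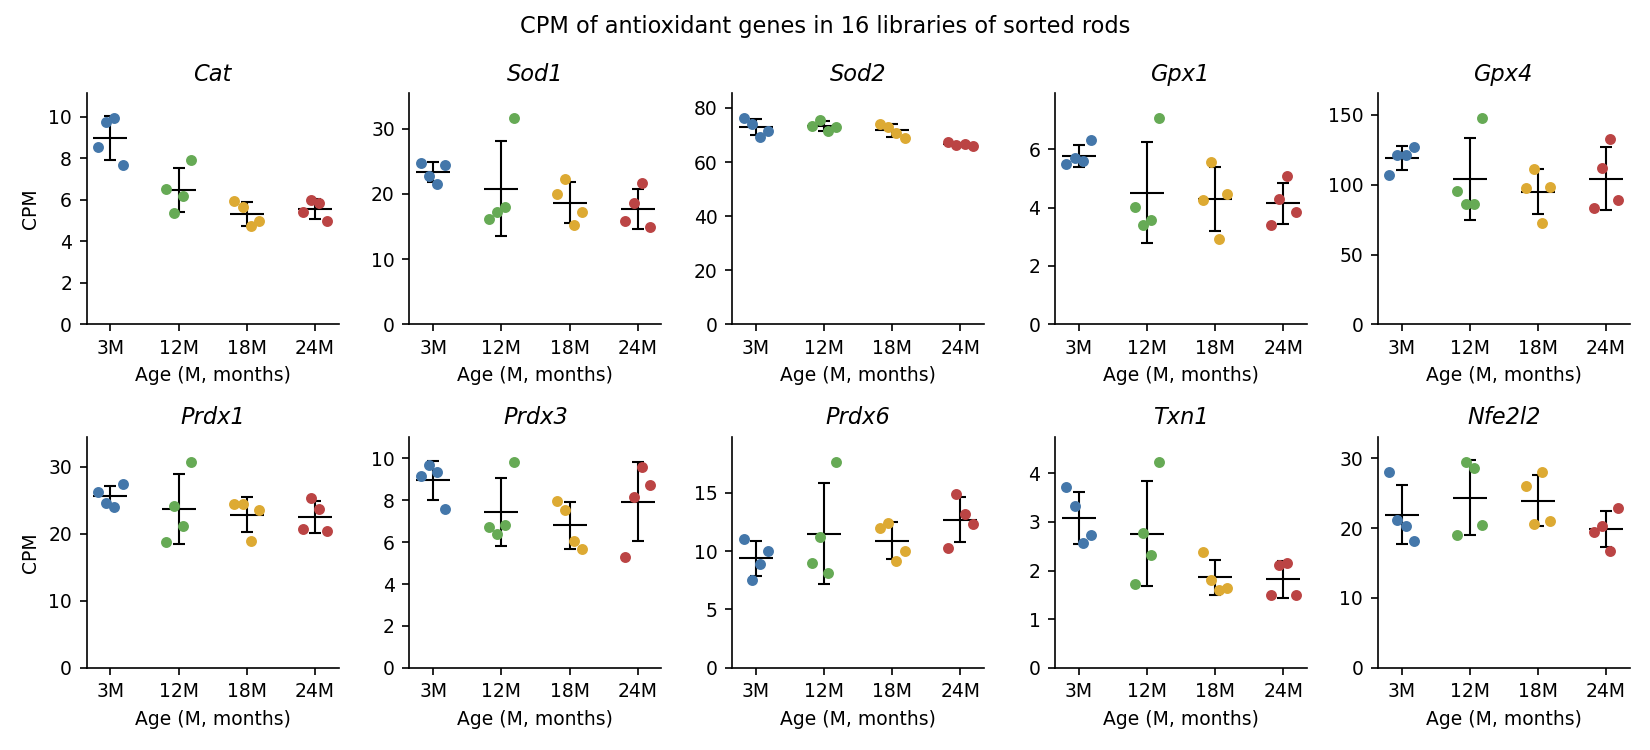
CPM of each of the 10 genes by age, with 1 point per library and the mean ± SD of the 4 libraries of an age in black; the axes start at 0 and differ between panels. Cat is lower in all 18M and 24M libraries than in any 3M library, Sod2 hardly varies, and the high 12M point of 7 genes is the same library, 12M replicate 4.

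In the comparison of 24M with 3M, 4.25% of all 12177 tested genes passed the test in either direction and 1.6% were lower. Cat was the 1 gene called among the 9 antioxidant genes tested. Other settings called other numbers of the 9 at 24M, and of all genes with them. DESeq2 called 1 of the 9 (6.34% of all genes), a term for the length slope 2 (11.4%), the authors' normalized CPM 3 (21.3%), a term for the GC slope (as the length slope, but over the GC content of a gene) 4 (20.4%), the 13 libraries 4 (23.7%), and voom with quality weights 5 (27.2%). The authors' gene CPM called 0 (3.79%), and so did the 13 libraries with the length slope as a term (2.97%). In that last fit slope and age cannot be fully told apart. At 18M, where 2.64% of all genes passed and 0.961% were lower, Cat was again the 1 gene called among the 9, and the 1 whose 18M and 3M libraries did not overlap (13.7% of all genes in either direction, 6.46% with 18M lower). None was called at 12M (1.39% of all genes). There 1 of the 9 had an unadjusted edgeR p under 0.05, against 9.15% of all genes. At 12M DESeq2 called 1 (Cat, with 2.57% of all genes in that fit) and limma voom with quality weights called 6 (47.9%). The trend called Cat (4.8% of all genes passed, 1.95% falling), and so did the F-test over 4 ages (2.82%). Between neighbouring ages, edgeR called none of the 9 genes at 18M against 12M or at 24M against 18M. Of all tested genes it called 1 (0.00821%) and 0 (0.0%) in these steps. In both steps 0 of the 9 had an unadjusted edgeR p under 0.05, against 2.23% and 5.58% of all genes. None of the alternatives tried called any of the 9 there. The largest step of Cat was -0.28 (18M at 5.33 CPM against 12M at 6.49 CPM). The median log2 difference of the 9 genes at 24M against 3M was -0.18, against 0.01 over all tested genes, and 8 of the 9 were below 0, against 47.3% of all genes.

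By transcript, the longer of a pair was lower at the later ages. The annotation gives Cat a pair of coding transcripts, Cat-201 of 2613 bases, with 83.8 ± 7.54% of the gene's estimated counts, and Cat-202 of 779 bases, with 16.2 ± 7.54% (SD over 16 libraries). Cat-201 stood at 3.96 to 4.88 CPM in the 24M libraries, 3.82 to 5.09 CPM at 18M and 4.59 to 6.44 CPM at 12M, all below its 7.01 to 8.78 CPM at 3M. Cat-202 averaged 0.990 ± 0.641 CPM at 24M and 1.07 ± 0.298 CPM at 3M (SD, n = 4 each), with overlapping libraries. Tested on Cat-201 alone, an alternative chosen after seeing the data, the difference at 24M was -0.79 (edgeR adjusted p = 0.0024) and at 12M -0.60 (edgeR adjusted p = 0.043).

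**Figure D4:**
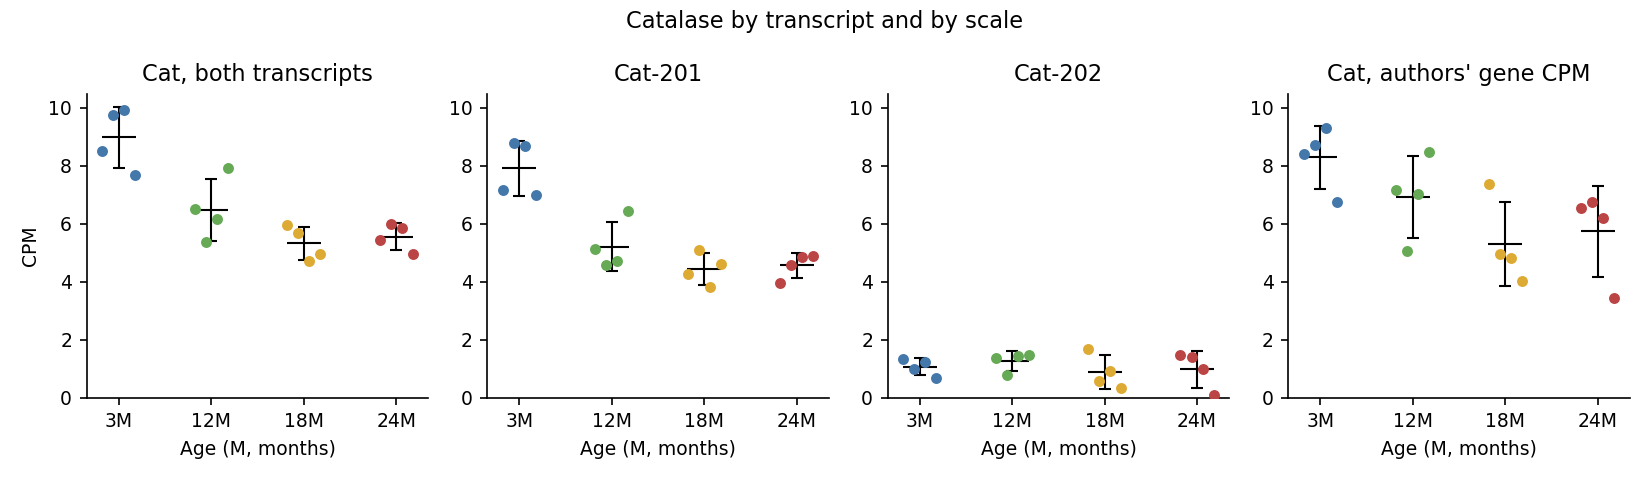
Catalase by age on a common CPM axis, with 1 point per library and the mean ± SD of 4 libraries: both transcripts summed, Cat-201, Cat-202, and the authors' deposited CPM per gene. Cat-201 has no 12M, 18M or 24M library at the 3M level, Cat-202 overlaps at all ages, and on the authors' scale the highest 24M library (6.76 CPM) touches the lowest 3M library (6.76 CPM).

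The call of catalase differed between the edgeR fit of summed counts and the fits of the authors' CPM. These fits differ in the test as well as in the summing of transcripts, and the part of each was not tested. The deposited CPM per gene followed, up to a factor per library and per gene, the sum per length within 6.69% for Cat in all libraries, against up to 29.5% from the plain sum of counts, and a sum per length gives the short Cat-202 more weight. On that scale Cat had 6.55, 6.76, 6.21 and 3.43 CPM at 24M, against 8.41, 8.71, 9.31 and 6.76 CPM at 3M, and limma on log2(authors' CPM + 0.5) gave -0.53 (adjusted p = 0.26), where adjusted p over 15 alternatives ranged from 3.5e-05 to 0.26 and 11 of them called Cat. In the authors' deposited table, Cat had a log2 difference of -0.616 at 24M, -0.604 at 18M and -0.341 at 12M, each from 3M, with an adjusted p of 0.14 for the 3 ages together. In the 13 libraries that the authors normalized, Cat at 24M was called (-0.72, SE 0.124, edgeR adjusted p = 0.0012). It was also called with a length slope term in all 16 libraries (-0.62, SE 0.114, edgeR adjusted p = 0.0019). The call ended with the length slope added to the 13 libraries (-0.58, SE 0.197, edgeR adjusted p = 0.18), another alternative chosen after seeing the data. There the slope was -0.041 to -0.0161 at 3M and -0.000242 to 0.0493 at 24M, so that fit cannot fully separate it from age.

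**Figure D5:**
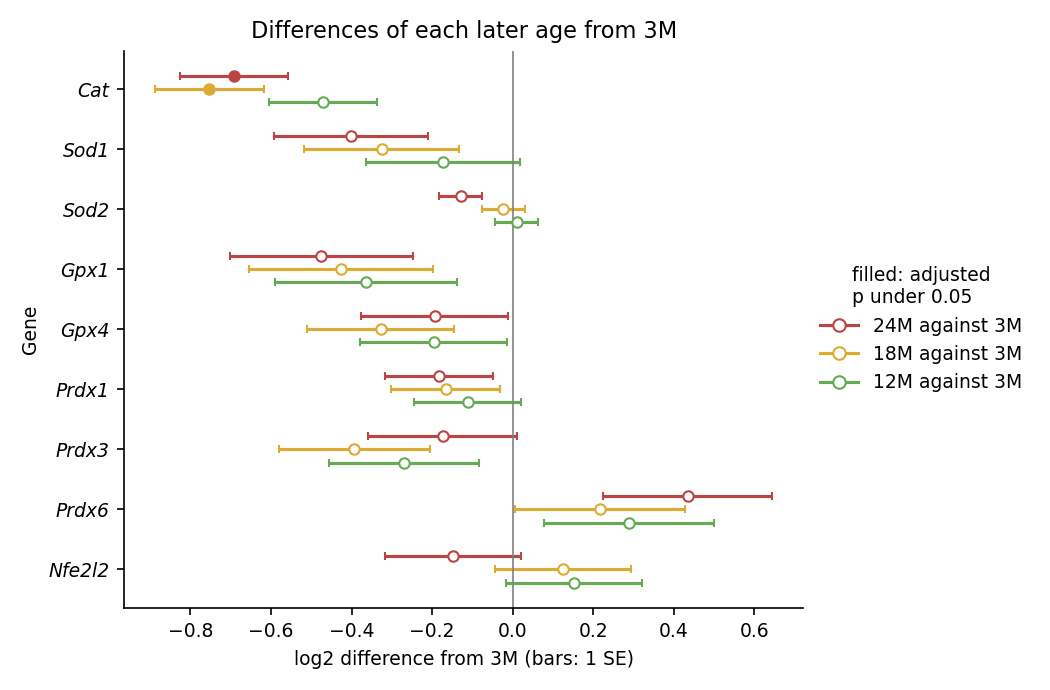
log2 difference of 24M, 18M and 12M from 3M for the 9 tested genes, with bars of 1 SE; filled points have an edgeR adjusted p under 0.05. The filled points are Cat at 24M and at 18M; Prdx6 lies right of 0 at every age and 7 genes lie left of it at 24M and 18M.

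The superoxide dismutases had smaller differences. Sod1 (ENSMUSG00000022982, chromosome 16, 90220742 to 90226322, GRCm38) had 24.7, 22.75, 21.5 and 24.5 CPM at 3M, 16.1, 17.3, 18.05 and 31.6 CPM at 12M, 19.9, 22.3, 15.2 and 17.2 CPM at 18M, and 15.8, 18.6, 21.6 and 14.9 CPM at 24M. Apart from 12M replicate 4 and a value each at 18M and 24M, the later libraries lay below the 3M range. The difference at 24M (17.7 ± 3.02 CPM against 23.4 ± 1.52 CPM at 3M; SD, n = 4 each) was -0.40 with an SE of 0.192 (edgeR adjusted p = 0.37). In the 13 libraries that the authors normalized it was -0.51 (SE 0.102) and passed (edgeR adjusted p = 0.0032), with 23.7% of all genes called in that fit, and 4 of 15 alternatives called it in all. The 650 bases that Sod1 shares with Scaf4 on the opposite strand cannot be assigned with certainty, since no source states the strand setting of the counting.

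Sod2 (ENSMUSG00000006818, chromosome 17, 13007839 to 13018119, GRCm38) was the steadiest gene. It had 76.2, 74.2, 69.4 and 71.6 CPM at 3M, 73.5, 75.6, 71.4 and 72.8 CPM at 12M, 74.1, 73.0, 70.6 and 68.9 CPM at 18M, and 67.4, 66.3, 66.7 and 66.01 CPM at 24M. All 24M libraries were below all others, which at 24M against 18M held for 4.11% of all tested genes in either direction and 1.68% with 24M lower. The size was small, 66.6 ± 0.589 CPM at 24M against 72.8 ± 2.98 CPM at 3M (SD, n = 4 each; log2 difference -0.13, SE 0.053), and did not pass the test over all genes (edgeR adjusted p = 0.26). With a term for the GC slope of each library it did (edgeR adjusted p = 0.026; 20.4% of all genes called in that fit). Separation of the 4 libraries of each age was not rare: 10.6% of all tested genes had no overlap between 24M and 3M, 5.32% with 24M lower, and of the 9 antioxidant genes Cat, Gpx1 and Sod2 did, all lower at 24M.

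Both glutathione peroxidases read differently with and without 3 libraries. Gpx4 (ENSMUSG00000075706, chromosome 10, 80047166 to 80056439, GRCm38) had 106.7, 121.2, 121.6 and 127.1 CPM at 3M, 95.8, 86.4, 86.25 and 147.6 CPM at 12M, 97.7, 111.2, 72.7 and 98.1 CPM at 18M, and 83.6, 111.9, 132.5 and 88.8 CPM at 24M. The highest value at 12M and at 24M, and the lowest at 18M, are those of the 3 libraries that the authors' normalized table does not hold. With all 16 libraries the difference at 24M was -0.19 (SE 0.182, edgeR adjusted p = 0.75), and in the 13 libraries -0.33 (SE 0.096, edgeR adjusted p = 0.024). With a length slope term in the fit of 16 libraries, it shrank to -0.04 (SE 0.074, edgeR adjusted p = 0.76). Gpx1 (ENSMUSG00000063856, chromosome 9, 108338903 to 108340343, GRCm38) had 5.51, 5.70, 5.58 and 6.31 CPM at 3M, 4.01, 3.405, 3.56 and 7.06 CPM at 12M, 4.25, 5.57, 2.915 and 4.48 CPM at 18M, and 3.42, 4.28, 5.07 and 3.845 CPM at 24M. No 24M library reached the 3M range. The difference at 24M of -0.47 (SE 0.228) did not pass (edgeR adjusted p = 0.37), while the 13 libraries gave -0.59 (SE 0.129, edgeR adjusted p = 0.0061) and the length slope term -0.29 (edgeR adjusted p = 0.16).

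In the authors' deposited table, Sod1, Gpx1 and Gpx4 had adjusted p-values of 0.0093, 0.005 and 0.024 over the later ages together, with log2 differences of -0.517, -0.57 and -0.338 at 24M. That table calls 26.7% of its 11826 genes at an adjusted p under 0.05. At 12M against 3M, the edgeR fit of the 13 libraries called 6 of the 9 genes (Cat, Gpx1, Gpx4, Prdx1, Prdx3 and Sod1) and 38.2% of all genes. With the length slope as a further term it called 0 of the 9 and 0.452%. In these 13 libraries the slope was -0.041 to -0.0161 at 3M and 0.0272 to 0.0749 at 12M. That fit therefore cannot fully separate the slope from age.

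Gpx4 was spread over several transcripts. Gpx4-202 held 46.2 ± 4.36% of its estimated counts, Gpx4-207 25.1 ± 2.91% and Gpx4-201 18.9 ± 2.86% (SD over 16 libraries), all coding. Gpx4-202 took 43.2 ± 5.44% of the counts at 24M, against 47.9 ± 2.30% at 3M (SD, n = 4 each). Gpx1-201 held 90.3% of Gpx1. These shares are estimates by transcript from reads that isoforms have in common.

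Prdx6 was the 1 tested gene with a positive difference at 24M. It encodes a peroxiredoxin that reduces phospholipid peroxides with glutathione. Prdx6 (ENSMUSG00000026701, chromosome 1, 161240112 to 161251219, GRCm38) had 11.05, 7.51, 8.92 and 10.03 CPM at 3M, 9.01, 11.2, 8.13 and 17.7 CPM at 12M, 12.0, 12.45, 9.17 and 9.97 CPM at 18M, and 10.3, 14.9, 13.2 and 12.35 CPM at 24M. The highest 3M library lay above the lowest 24M library, and the other 24M values were above all of 3M. Prdx6 averaged 12.7 ± 1.92 CPM at 24M and 9.38 ± 1.52 CPM at 3M (SD, n = 4 each; log2 difference 0.44, SE 0.21), which did not pass (edgeR adjusted p = 0.37). With the length slope as a term it was 0.57 and passed (edgeR adjusted p = 0.034; 11.4% of all genes called in that fit), and 2 of 15 alternatives called it. The library with the highest Prdx6, 12M replicate 4, also had the highest summed Müller glia markers (451.9 CPM), and those sums averaged 239.6 CPM at 24M and 175.6 CPM at 3M; their part in the level of Prdx6 was not tested. Coding transcript Prdx6-202 held 26.9% of the counts, against 34.4% for Prdx6-209, annotated as a retained intron, and 27.2% for Prdx6-208, annotated for nonsense-mediated decay. Prdx6-202 stood at 2.63 to 4.31 CPM in 24M libraries and 1.64 to 2.32 CPM in 3M libraries, with no overlap. By gene, 10.6% of all tested genes had no overlap between these ages. Prdx6-208 (2.48 to 4.65 CPM at 24M, 1.84 to 4.07 CPM at 3M) and Prdx6-209 (3.56 to 4.77 CPM at 24M, 2.69 to 4.56 CPM at 3M) overlapped. The difference of Prdx6-202 was not tested.

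The other peroxiredoxins did not pass at any age in the edgeR fit of all 16 libraries. Prdx1 (ENSMUSG00000028691, chromosome 4, 116685544 to 116700822, GRCm38) ranged from 20.4 to 25.4 CPM at 24M and from 24.0 to 27.4 CPM at 3M (log2 difference -0.18, SE 0.134, edgeR adjusted p = 0.63). Its coding transcript Prdx1-204 held 67.2% of the counts. Prdx3 (ENSMUSG00000024997, chromosome 19, 60864051 to 60874556, GRCm38) ranged from 5.27 to 9.59 CPM at 24M and from 7.56 to 9.69 CPM at 3M (-0.17, SE 0.185, edgeR adjusted p = 0.79). At 18M against 3M, Prdx3 averaged 6.81 CPM against 8.95 CPM, a difference of -0.39 (SE 0.187, edgeR adjusted p = 0.41), and that of Prdx1 was -0.17 (edgeR adjusted p = 0.65). The libraries of both genes overlapped between the ages.

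Txn1, the cytosolic thioredoxin that passes electrons to peroxiredoxins, reached at most 4.24 CPM in any of the 16 libraries. The filter asks for 5 CPM or more in at least 4 libraries, so Txn1 was not among the 9 tested. Txn1 (ENSMUSG00000028367, chromosome 4, 57943373 to 57956411, GRCm38) had 3.72, 3.319, 2.57 and 2.72 CPM at 3M, 1.72, 2.77, 2.32 and 4.24 CPM at 12M, 2.39, 1.81, 1.61 and 1.64 CPM at 18M, and 1.49, 2.12, 2.16 and 1.497 CPM at 24M. No library of 18M or 24M reached the lowest 3M library, and the 12M libraries ran from under the 3M range to above it. Of the 12177 genes above the filter, 10.6% had no overlap at 24M against 3M and 13.7% at 18M, in either direction. Those shares leave out genes as low as Txn1. With the filter lowered to 1 CPM, Txn1 had a log2 difference of -0.79 (SE 0.25) at 24M against 3M, which did not pass (edgeR adjusted p = 0.11), and a trend of -0.50 per 12 months (SE 0.135) which did (edgeR adjusted p = 0.043; 4.09% of 17683 genes called). With no filter that trend did not pass (edgeR adjusted p = 0.067).

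Nfe2l2 (ENSMUSG00000015839, chromosome 2, 75675513 to 75704641, GRCm38) did not pass the edgeR test in any comparison, while voom with quality weights called it at 12M (adjusted p = 0.031), 1 of 15 alternatives there. It had 28.0, 21.2, 20.4 and 18.2 CPM at 3M, 19.0, 29.5, 28.5 and 20.4 CPM at 12M, 26.0, 20.6, 28.0 and 21 CPM at 18M, and 19.5, 20.2, 16.7 and 22.9 CPM at 24M. The ages overlapped, with a difference of -0.15 (SE 0.169) at 24M against 3M (edgeR adjusted p = 0.81). RNA says nothing of its protein, which is regulated by degradation. Its repressor partner Keap1 averaged 26.7 ± 5.01 CPM at 24M and 28.6 ± 2.80 CPM at 3M (SD, n = 4 each; edgeR adjusted p = 0.85).

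Bach1, which represses genes at antioxidant response elements, was the gene called among 12 tested of 14 partners and regulators of Nfe2l2. At 24M against 3M, 2 of these 12 had an unadjusted edgeR p under 0.05, DESeq2 called 2 and limma voom with quality weights 4. Over all tested genes these shares were 14%, 6.34% and 27.2%. Bach1 had 19.5, 16.9, 18.0 and 22.05 CPM at 24M, against 27.5, 26.6, 25.7 and 23.6 CPM at 3M, with no overlap. Its log2 difference was -0.43 (SE 0.103, edgeR adjusted p = 0.023). The call was lost without any 1 of 3M replicates 1, 2 and 3 and 24M replicates 1 and 2 (highest adjusted p 0.085) and held without each of the other 11 libraries. Of 18 target genes of Nfe2l2, 13 were tested and edgeR called 0 at any later age against 3M or in the trend, with a median log2 difference of -0.01 at 24M against 3M. At 24M against 3M 0 of these 13 had an unadjusted p under 0.05, DESeq2 called 0 and limma voom with quality weights 5, where 14%, 6.34% and 27.2% of all tested genes met these marks. Hmox1, heme oxygenase, averaged 2.90 ± 0.557 CPM at 24M and 2.57 ± 0.341 CPM at 3M, and Nqo1, a quinone reductase, 0.401 ± 0.267 CPM at 24M and 0.293 ± 0.106 CPM at 3M (SD, n = 4 each), both under the filter. Srxn1, the sulfiredoxin that repairs peroxiredoxins, averaged 13.8 ± 2.02 CPM at 24M and 13.8 ± 1.74 CPM at 3M, and the thioredoxin reductase Txnrd1 25.0 ± 2.03 CPM at 24M and 28.0 ± 0.665 CPM at 3M (SD, n = 4 each; edgeR adjusted p = 0.42).

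In the thioredoxin and glutaredoxin system, 8 of 12 genes were tested and 1 passed, Nxnl2, a thioredoxin-like protein of photoreceptors. At 24M against 3M, 4.25% of all genes passed. There 3 of these 8 had an unadjusted edgeR p under 0.05, DESeq2 called 2 and limma voom with quality weights 6. Of all tested genes, 14%, 6.34% and 27.2% met these marks. Nxnl2 had 29.5, 30.3, 37.4 and 30.4 CPM at 24M, against 66.6, 66.7, 68.7 and 66.95 CPM at 3M, with 41.7 to 63.7 CPM at 12M and 34.6 to 48.0 CPM at 18M, all below the 3M libraries. Its log2 difference at 24M was -1.07 (SE 0.136, edgeR adjusted p = 0.0001), larger in size than that of Cat, and it was called with each library left out in turn. Mitochondrial Txn2 averaged 34.4 ± 4.55 CPM at 24M and 33.7 ± 1.88 CPM at 3M (SD, n = 4 each; edgeR adjusted p = 0.96). Glutathione reductase, Gsr, averaged 17.7 ± 3.09 CPM at 24M and 19.3 ± 2.10 CPM at 3M (SD, n = 4 each; edgeR adjusted p = 0.81). Txnip, the thioredoxin inhibitor, was under the filter at 0.892 ± 0.244 CPM at 24M and 0.932 ± 0.113 CPM at 3M (SD, n = 4 each).

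Of 9 genes of glutathione synthesis and supply, 8 were tested and Gss, glutathione synthetase, passed. At 24M against 3M, 1 of these 8 had an unadjusted edgeR p under 0.05, DESeq2 called 1 and limma voom with quality weights 3. The shares over all tested genes were 14%, 6.34% and 27.2%. Gss had 53.2, 47.5, 47.0 and 47.8 CPM at 24M, against 37.8, 37.95, 43.1 and 41.0 CPM at 3M, with no overlap (log2 difference 0.29, SE 0.075, edgeR adjusted p = 0.039). The call was lost in 9 of the 16 fits that left out a library (without 3M replicate 1, 2 or 4, 12M replicate 3, 18M replicate 1 or 4, or 24M replicate 1, 2 or 4; highest adjusted p 0.15), and in 7 of 15 other settings (adjusted p over the 15 from 0.0042 to 0.24). Gclc, the catalytic subunit of the enzyme before it, averaged 16.6 ± 1.95 CPM at 24M and 16.6 ± 0.818 CPM at 3M (SD, n = 4 each; edgeR adjusted p = 0.99). Gclm, the modifier subunit, averaged 9.82 ± 1.27 CPM at 24M and 8.44 ± 0.985 CPM at 3M (SD, n = 4 each; edgeR adjusted p = 0.39).

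The other lists had no gene called by edgeR at 12M, 18M or 24M against 3M or in the trend. At 24M against 3M, 9 of their 68 tested genes had an unadjusted p under 0.05, DESeq2 called 1 of them and limma voom with quality weights 14, beside the same 14%, 6.34% and 27.2% of all genes. Of 15 genes of peroxisome import and biogenesis, all 15 were tested, with a median of -0.05 at 24M against 3M, and of 13 peroxisomal oxidases and transporters 8 were tested, with a median of -0.01. Of 13 NADPH supply genes, 12 were tested (median -0.10). Among them Nnt, the mitochondrial transhydrogenase that C57BL/6J mice are known to lack as a working protein, averaged 11.6 ± 0.588 CPM at 24M and 11.8 ± 0.961 CPM at 3M (SD, n = 4 each; edgeR adjusted p = 0.96). All 9 selenoprotein synthesis genes were tested (median 0.00), and 8 of 9 FOXO and PGC-1 regulators (median 0.06). The list of further peroxiredoxins and sulfiredoxin had 3 of 4 genes tested (median -0.14). Prdx2, a cytosolic peroxiredoxin, averaged 22.1 ± 5.26 CPM at 24M and 25.2 ± 1.21 CPM at 3M (SD, n = 4 each; edgeR adjusted p = 0.79), and Prdx5 averaged 13.5 ± 3.05 CPM at 24M and 14.8 ± 1.30 CPM at 3M (SD, n = 4 each; edgeR adjusted p = 0.87). Oxidant-producing enzymes had 7 of 13 genes tested (median 0.15), glutathione transferases 3 of 14 (median 0.04), methionine sulfoxide reductases 2 of 4 (median 0.21) and superoxide dismutation beyond Sod1 and Sod2 1 of 2 (-0.17), while no further glutathione peroxidase (4 genes) and no metallothionein (3 genes) passed the filter. Over all lists, 3 of 101 tested genes were called at 24M against 3M, 1 higher and 2 lower, where 4.25% of all genes were.

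The genes most like Cat over the 16 libraries, by the root mean square difference of log2 CPM centred per gene among 10285 protein-coding genes, were Cspg5 (0.134), Snrk (0.141), Tet1 (0.147), Rtn4rl2 (0.157) and Dstn (0.158), where the median gene was at 0.359. Snrk averaged 231.2, 157.4, 140.9 and 129.6 CPM at 3M, 12M, 18M and 24M. Those most like Nfe2l2 were Mtch2 (0.084), Ebag9 (0.105), Slc25a40 (0.107), Clk4 (0.11) and Chic2 (0.115), where the median gene was at 0.314. All libraries enter both measures, and shared length slopes count toward likeness.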

How the data were processed

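Total RNA of flow-sorted mouse rods gave 16 libraries, 4 for each of 4 ages. The authors deposited estimated counts per transcript. Tools named in the submitters' processing notes, with no role or order, are kallisto (0.42.5), edgeR (3.13.9) and limma (3.32.2), with the build GRCm38.p4. The authors also deposited a CPM signal per gene and a normalized CPM signal for 11826 genes in 13 libraries. Their table of comparisons holds log2 differences, an F statistic as a score, p-values and adjusted p-values, per the file headers. No source states how they summed transcripts to genes or why 3 libraries are not in the normalized table.

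For the values above, 111896 of 113468 transcripts were matched by identifier to GENCODE genes of GRCm38. Their estimated counts were added up per gene (45038 genes), with rounding to whole numbers before testing. Unmatched transcripts held 0.73% to 1.08% of a library, and totals were 20579144 to 28791777 per library. A gene was tested if 4 or more libraries had 5 CPM or more (12177 genes). The test was the quasi-likelihood F-test of edgeR (4.0.16, under R 4.3.3) with TMM factors and 1 mean per age over all 16 libraries, or age in months as a line. P-values were adjusted by Benjamini-Hochberg over all tested genes, and those under 0.05 are called. CPM in the text uses TMM factors, and TPM uses annotated transcript lengths. P-values measure the spread between libraries, part of which may be technical. No pair of libraries agreed within sampling noise (lowest chi-square per degree of freedom 8.99). The script was tested on simulated data.

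Alternatives were DESeq2 (1.42.0), limma (3.58.1; voom with quality weights, or log2 of the authors' CPM plus 0.5 or 2), other size factors and filters, length and GC slopes as terms, a replicate block, fewer libraries or ages, and each library left out in turn. The length slope within the 13 libraries, and the leading transcript of each gene, were added after seeing the data. Genes outside the 10 were named where they passed the test in a pathway list or belong to a short set named with the list. The 10 genes and the lists were chosen with earlier results of these data known. The value of 1 rod marker is not reported here.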

Additional observations from a re-analysis of the deposited data

Results flagged for a closer look

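Replicate 4 of 12M stood far from the other 3 libraries of its age for 4 of the 10 genes, out of 40 groups of 4 libraries looked at, where chance gives about 1 in 20. Sod1 had 31.58 CPM there, against 16.13 to 18.05 CPM in the others. Gpx1 had 7.062 CPM, against 3.405 to 4.012 CPM. Gpx4 had 147.6 CPM, against 86.25 to 95.83 CPM. Prdx3 had 9.837 CPM, against 6.385 to 6.816 CPM. All 4 are the same library, so they are not independent of each other. Its length slope was -0.0474 and its GC slope 0.382 in log2 CPM per 10 percentage points of GC content, against length slopes of 0.0272 to 0.0749 and GC slopes of -0.234 to -0.202 in the other 12M libraries, and its summed Müller glia markers were 451.9 CPM. Their part in these values was not tested.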

How the results depend on the processing

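At 24M against 3M, 1 of the 9 tested genes (Cat) was called in the main setting. The number was 5 with voom and quality weights, 4 in the 13 libraries, 4 with a GC slope, 3 with the authors' normalized CPM (Gpx1, Gpx4 and Sod1, without Cat), 2 with a length slope (Cat and Prdx6), 0 with the authors' gene CPM at either pseudocount, and 0 in the 13 libraries with a length slope. At 18M it was 0 with the authors' gene CPM at either pseudocount and 0 with their normalized CPM, against 1. At 12M, where the main setting called 0, it was 6 with voom, 6 in the 13 libraries, 3 with the authors' normalized CPM (33.2% of all genes), and 1 (Cat) with DESeq2, a GC slope (4.94%) or the leading transcript of each gene (1.4%). The F-test over ages, with 1 called, gave 6 with voom (44.6% of all genes), 4 in the 13 libraries (29.1%), 3 with the authors' normalized CPM (26.1%) and 0 with their gene CPM at either pseudocount (2.68%), against 2.82% in the main setting. The trend, with 1 called, gave 4 with a GC slope (18.4% of all genes), 3 with voom (8.6%), 2 in the 13 libraries (8.67%), 2 there with a length slope (7.25%), 2 with a minimum of 1 CPM (Cat and Txn1; 4.09%) and 0 with the authors' gene CPM at either pseudocount (4.18% and 4.24%), against 4.8% in the main setting, while the authors' normalized CPM called Sod1 in place of Cat (7.58%). Leaving out each library in turn gave 1 called gene in each fit at 24M, at 18M and for the trend, 0 to 1 at 12M and 0 to 1 for the F-test. The cause of these differences was not tested. Of all genes at 24M, 518 were called in the main setting, against 3311 with voom, 2880 in the 13 libraries, 2519 with the authors' normalized CPM, 2486 with a GC slope and 1394 with a length slope.

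Directions turned for 6 genes, and none of the turned differences was called. At 24M this was Nfe2l2 with voom (0.009). At 18M it was Sod2 with voom (0.004) and Prdx1 with the authors' normalized CPM (0.000). At 12M it was Sod2 with no filter and with the authors' gene CPM at either pseudocount (-0.012 in each), Sod1 (0.047), Gpx4 (0.052), Prdx1 (0.029) and Nfe2l2 (-0.029) with a length slope, Nfe2l2 in the 13 libraries with a length slope (-0.155), and Prdx6 with the authors' normalized CPM (-0.178). Leaving out a library in turn gave Sod2 at 12M differences of -0.013 to 0.032. By level, the authors' gene CPM without division by length ranked Sod2 2, Nfe2l2 4, Sod1 5, Cat 8 and Gpx1 9 among the 10 genes.

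Whether replicate numbers pair the samples cannot be decided from correlations of deviations, since shared length slopes also count toward them. Of 24 same-number pairs, 11 had a correlation over 0.1 (range -0.744 to 0.726). Replicate 1 of 3M correlated more with 12M replicate 2 (0.47) than with 12M replicate 1 (0.23). Among the 12M libraries, 3M replicate 4 correlated most with replicate 4 (0.713). With a replicate block, 444 genes were called at 24M, and Cat remained called (-0.69, edgeR adjusted p = 0.021). Counting limits Txn1 and Gpx1 most, with 34 to 102 and 69 to 151 estimated counts per library.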
